A study of Homo sapiens with 4 samples.

Results

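The genes described here are 7 members of the leukocyte adhesion system. They comprise the beta2 integrin alpha subunits ITGAL, ITGAM, ITGAX and ITGAD, the common beta2 subunit ITGB2, and the ligands ICAM1 and ICAM3. For each gene the body and 50 kb on either side were taken from the hg19 annotation, and windows of neighbouring genes were merged, which gave 4 windows. Peaks of the 4 deposited ATAC-seq lists that overlapped or touched were merged into 78046 regions, of which 73 lay in these windows. The windows were chr16:30433979-30584888 around ITGAL (151 kb), chr16:31221288-31487826 around ITGAM, ITGAX and ITGAD (267 kb), chr21:46255868-46401904 around ITGB2 (146 kb) and chr19:10331769-10500337 around ICAM1 and ICAM3 (169 kb). They also hold neighbouring genes, so a region was assigned to a member by its distance from that member's canonical start site, along the gene's strand.

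Integrins are paired receptors of an alpha and a beta chain. On leukocytes the beta2 chain CD18, encoded by ITGB2, joins CD11a (ITGAL) to form LFA-1, CD11b (ITGAM) to form Mac-1, which also serves as a complement receptor, CD11c (ITGAX), or CD11d (ITGAD). They bind ICAM proteins on other cells and carry firm adhesion, migration out of vessels and, for Mac-1, phagocytosis. CD11b is widely used as a surface marker of maturing granulocytes and monocytes.

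ATAC-seq uses the Tn5 transposase to cut accessible DNA, and the study used it to ask how chromatin accessibility changes when HL-60 cells mature. HL-60 (ATCC CCL-240) is an established human line from peripheral blood, labelled acute promyelocytic leukemia, and it is a single cell line, not primary blood cells. The ATRA group was given 1 µM all-trans retinoic acid for 4 days and the control group an equal amount of the ethanol solvent for the same time, and in both groups the medium and agent were renewed on day 2. Each group had 2 libraries, written below as replicates 1 and 2.

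The list of ATRA replicate 2 stood apart from the others. It held 63541 peaks against 42081 to 45903, had a median peak width of 416 bp against 291 to 328 bp, and covered 31.6 Mb against 16.3 to 17.5 Mb. Read counts per peak were not part of the lists and the depth of the libraries is therefore unknown. The deposited score has no stated scale and was therefore turned into a percentile within its own list, on which 0 stands for no peak. A list that holds more weak peaks gives the same peak a higher percentile. Among marker genes, a start-site peak was found in every list for SPI1 and CEBPE of the granulocyte and promyelocyte markers (3 to 5 of 8 markers per list), and erythroid and epithelial markers had 0 of 4 in every list. B cell markers had 1 to 2 of 4. Monocyte markers had 1 of 4 (CD163) in ATRA replicate 1, 2 of 4 (CD163 and CSF1R) in ATRA replicate 2 and 0 of 4 in the control lists. T cell markers had 1 of 4 (LCK) in each ATRA list and 0 of 4 in the control lists. Their part in the results below was not tested. In a bulk library, more cells with an open site and a wider opening in each cell cannot be told apart.

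The sequences below, on the plus strand of hg19 (GRCh37), are from some of the regions that differed between the groups. All of them are from regions with higher values in the ATRA lists, and none is from a region higher in the control lists. Each shows at most 200 bases, placed near the centre of the region or directly upstream of the annotated gene start and kept off annotated untranslated exons. Capitals mark a match to a searched motif. The ITGAM promoter was found in every list, with higher scores in the ATRA lists. The other regions were found in both ATRA lists and in neither control list.
ITGAM promoter, chr16:31271088-31271287: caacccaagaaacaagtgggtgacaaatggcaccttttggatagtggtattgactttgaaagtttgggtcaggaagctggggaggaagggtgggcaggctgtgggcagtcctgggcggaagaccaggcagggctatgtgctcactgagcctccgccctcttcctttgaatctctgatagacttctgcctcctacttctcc
ITGAL intron, chr16:30485103-30485302: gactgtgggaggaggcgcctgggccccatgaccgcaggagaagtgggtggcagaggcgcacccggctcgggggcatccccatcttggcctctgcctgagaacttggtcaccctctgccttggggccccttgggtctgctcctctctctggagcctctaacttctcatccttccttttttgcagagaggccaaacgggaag
ITGB2 alternative start, chr21:46334199-46334398: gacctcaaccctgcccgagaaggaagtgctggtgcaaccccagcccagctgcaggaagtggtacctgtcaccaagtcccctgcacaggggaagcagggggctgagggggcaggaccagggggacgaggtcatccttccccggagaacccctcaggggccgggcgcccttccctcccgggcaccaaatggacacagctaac
ICAM1 promoter, proximal, chr19:10381569-10381768: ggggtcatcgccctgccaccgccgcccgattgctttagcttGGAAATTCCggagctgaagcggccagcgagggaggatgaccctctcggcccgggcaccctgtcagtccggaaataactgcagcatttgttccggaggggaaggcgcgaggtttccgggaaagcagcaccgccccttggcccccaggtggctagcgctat
ICAM1 promoter, distal, chr19:10381047-10381246: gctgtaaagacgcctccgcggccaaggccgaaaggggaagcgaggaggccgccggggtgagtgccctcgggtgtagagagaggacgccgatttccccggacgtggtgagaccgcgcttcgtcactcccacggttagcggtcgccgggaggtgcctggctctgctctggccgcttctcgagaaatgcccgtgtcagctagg
ICAM1 upstream, chr19:10346866-10347065: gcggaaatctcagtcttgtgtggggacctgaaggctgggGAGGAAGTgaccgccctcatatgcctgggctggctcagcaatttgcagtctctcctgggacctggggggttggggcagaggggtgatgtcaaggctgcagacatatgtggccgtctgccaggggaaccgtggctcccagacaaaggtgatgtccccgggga

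The words searched on both strands were GAGGAAGT for PU.1, AACCACA for the RUNX factors, TTGCNNAA for CEBP, TGANTCA for the AP-1 factors, GGNNNTTCC for kappa-B and CCGGAAGT for ETS, which shares its core with the PU.1 word. The search also took the IRF consensus and, for the GATA factors, the words AGATAA as well as TGATAA. The PU.1 word stands forward in the ICAM1 upstream sequence. That region lay 34.8 kb upstream of ICAM1, and its nearest start site was that of S1PR2, 4.96 kb away. The proximal ICAM1 promoter sequence, which ends at the base before the annotated gene, holds the kappa-B word GGAAATTCC, which starts at base 42 from its left end. The ITGAM promoter, ITGAL intron, ITGB2 and distal ICAM1 sequences printed here hold none of these words. Outside the printed stretches, the ITGAM promoter and ITGB2 regions do hold a RUNX word. Regions not printed hold searched words as well. The ITGAL promoter region, which was higher in the control lists, holds a PU.1 word. The region 6.07 kb upstream of ITGAM, found in the ATRA lists alone, holds AP-1 and GATA words. A match describes letters and not binding.

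Within 100 bp of the region centre, the PU.1 word was present in 9 of the 73 regions (12.3%, against 8.94% of all 78046 regions). GATA words were present in 10 (13.7% against 18.8%), CEBP words in 9 (12.3% against 12.3%), kappa-B words in 10 (13.7% against 12.2%), AP-1 words in 7 (9.59% against 8.32%), RUNX words in 6 (8.22% against 8.55%), ETS words in 3 (4.11% against 1.11%) and IRF words in 0 (against 3.41%). The median GC content of the same 200 bp was 57.5% in the windows and 47.5% over all regions. By the group-specific regions defined below, the PU.1 word was in 3 of 5 control-specific regions of the windows (60%, against 7.82% genome-wide). It was in 3 of 27 ATRA-specific ones (11.1%, against 11.1% genome-wide). Shares of words move with base composition, and this was not adjusted for.

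Regions present in both ATRA lists and in neither control list were the most frequent pattern in the windows. They were 17 of the 73 regions (23.3%, against a background of 8.93% of all regions). Regions in both control lists and in neither ATRA list numbered 4 (5.48% against 3.37%). Regions in every list numbered 14 (19.2% against 30.3%), and those found in ATRA replicate 2 alone numbered 15 (20.5% against 19.1%). Of the 31 regions whose nearest start site belonged to a member, 11 (35.5%) were in the ATRA lists alone and 3 (9.68%) in every list. Of the 42 regions nearest to a neighbouring gene, 6 (14.3%) were in the ATRA lists alone and 11 (26.2%) in every list.

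**Figure D1:**
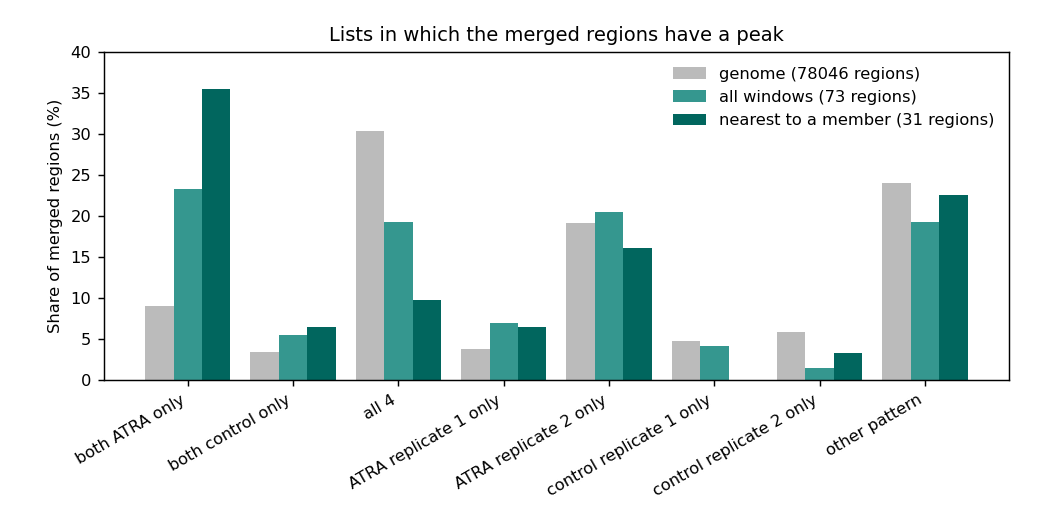
Share of merged regions (y axis, %) by the lists in which they have a peak (x axis), for all 78046 regions, the 73 regions of the windows and the 31 of these nearest to a member gene. Regions in both ATRA lists alone formed 8.93% of all regions, 23.3% of those in the windows and 35.5% of those nearest to a member.

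A definition rebuilt after the study's kept a peak of a group when both replicates had it (a convincing region) and called it specific when it overlapped no convincing region of the other group. How replicate peaks were merged is not stated in full in the sources used here, and totals differ from the study's. The study reports more ATRA and ATRA-specific peaks, and slightly fewer control and control-specific ones, than the rebuilt definition gave. By the rebuilt definition 27 of 41 convincing ATRA regions in the windows were ATRA-specific (65.9%, against a background of 37.3%), of which 17 had no peak in either control list (17 of 41, background 18.5%) and 10 had a peak in 1 of them. In the control group 5 of 19 convincing regions were control-specific (26.3% against 23.7%), of which 4 had no peak in either ATRA list (4 of 19, background 8.39%). The ATRA-specific share was 6 of 12 around ITGAL, 7 of 11 around ITGAM, ITGAX and ITGAD, 5 of 6 around ITGB2 and 9 of 12 around ICAM1 and ICAM3. When each list was cut to its 42081 highest-scoring peaks, 19 of 33 regions were ATRA-specific (background 32.2%). Without ATRA replicate 1 the count was 46 of 60 (background 55.4%) and the control-specific count 5 of 19 (background 9.97%).

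**Figure D2:**
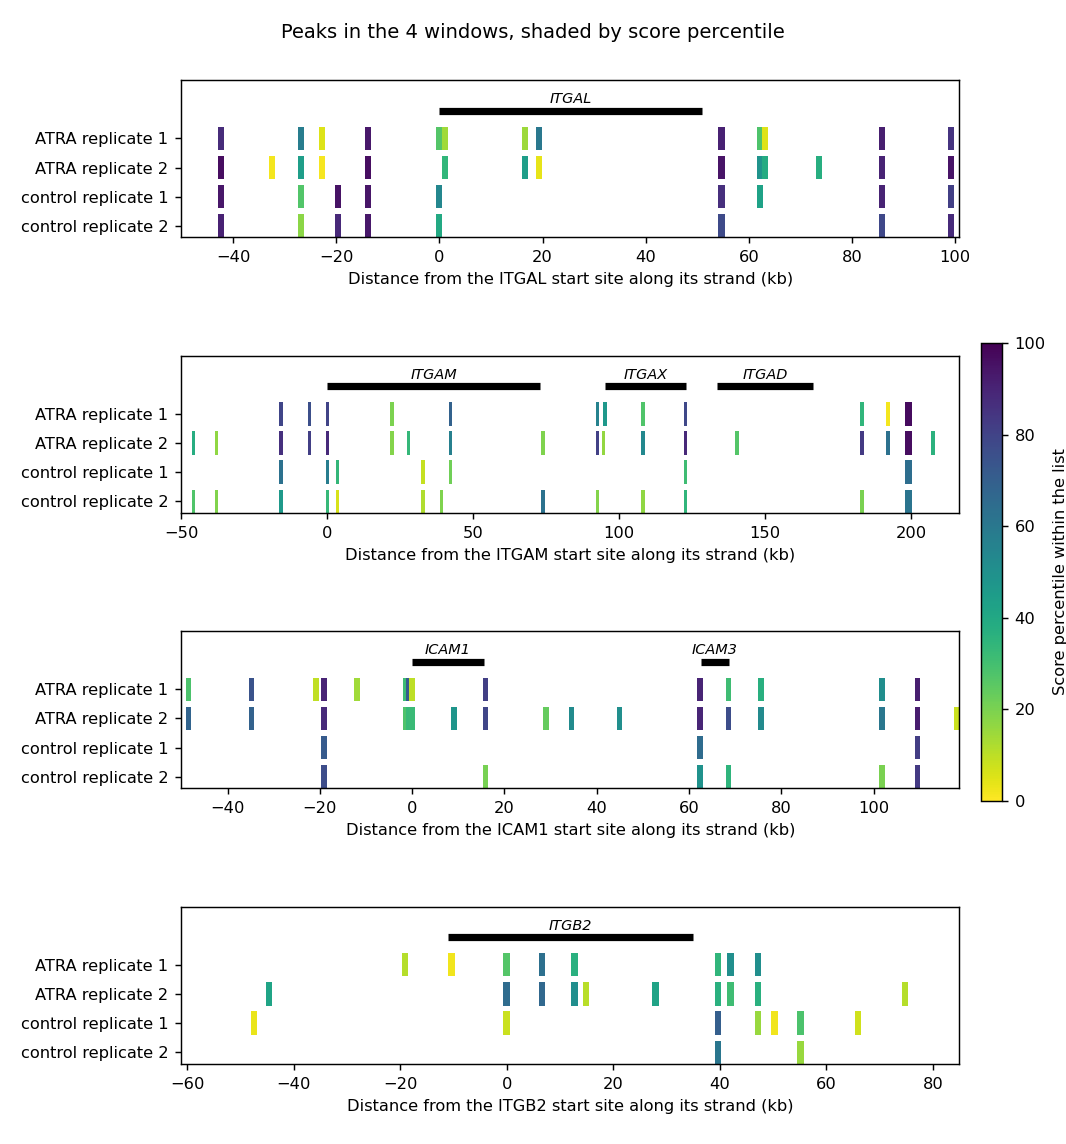
Peaks in the 4 windows by library, with the distance from the start site of the gene named on each x axis in kb, along that gene's strand. Each bar is a merged region in a row where that library has a peak, shaded by the score percentile within the list (0 to 100), narrow regions are widened to be visible, and black bars mark the genes. Around ICAM1 and in ITGB2 most bars stand in the ATRA rows, and 9 of 12 and 5 of 6 convincing ATRA regions of these windows were ATRA-specific.

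At the start sites, 4 of the 7 genes had both ATRA percentiles above both control percentiles, against a background of 22.2% of 19794 protein-coding genes. These were ITGAM, ITGAX, ITGB2 and ICAM1. The order was the opposite for ITGAL (1 of 7, against 3.82%), the groups overlapped for ICAM3, and ITGAD had no peak within 1 kb of its start site in any list. An ATRA-specific region lay within 1 kb of a start site of 4 genes, ITGAL, ITGB2, ICAM1 and ICAM3 (background 11.4%), and a control-specific region at ITGAL (background 2.88%). With 2 libraries against 2, the exact permutation test cannot give a two-sided p under 0.333, so none of these differences could reach significance.

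**Figure D3:**
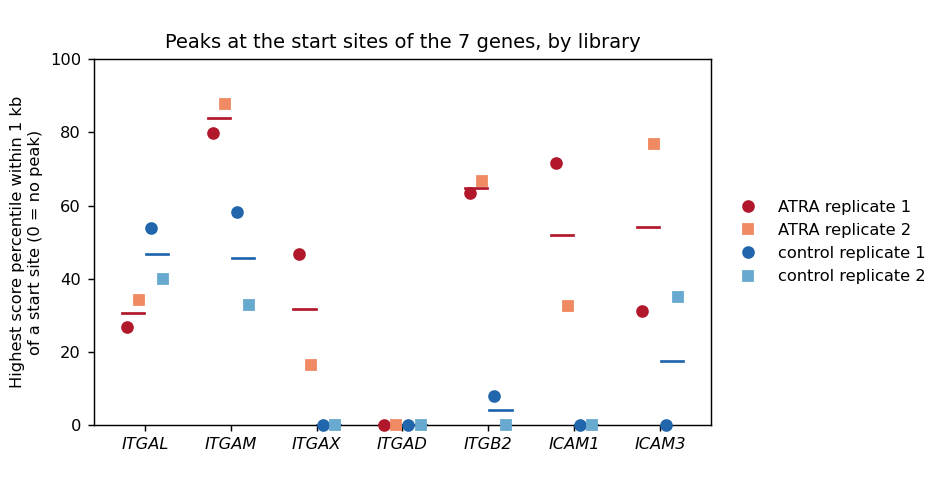
Highest score percentile of a peak within 1 kb of a start site (y axis, 0 for no peak) for the 7 genes, with 1 point per library and a line at each group mean. ITGAM, ITGAX, ITGB2 and ICAM1 have both ATRA points above both control points, ITGAL has the opposite order, and ITGAD is at 0 in every library.

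Among the alpha subunits, ITGAM had the highest start-site percentiles in both ATRA lists. Its promoter region, chr16:31270898-31271837, reached the percentile 79.8 in ATRA replicate 1, 87.9 in ATRA replicate 2, 58.2 in control replicate 1 and 32.9 in control replicate 2. The promoter was therefore already present in both control lists, and the ATRA values lay above both control values. The group means were 83.9 ± 5.73 and 45.6 ± 17.9 (SD, n = 2 each), a difference of 38.3 (two-sided exact permutation p = 0.333). The bases covered by a peak there were 478 and 940 in the ATRA lists and 301 and 336 in the control lists.

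A region 6.07 kb upstream of ITGAM, chr16:31264907-31265551, was high in the ATRA lists (76.1 in replicate 1 and 81.3 in replicate 2) and absent from both control lists. It had the highest mean percentile of the 17 regions found in the ATRA lists alone. Further upstream, at 15.8 kb, chr16:31255204-31255796 was in every list, with 79.5 and 86.3 in the ATRA lists against 62.8 and 46.1 in the control lists. Both ATRA values again exceeded both control values.

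Inside the ITGAM gene the introns held regions of both kinds. An intronic region 42.3 kb downstream of the start site was ATRA-specific, with 69 and 56.7 in the ATRA lists, 21.7 in control replicate 1 and no peak in control replicate 2, and a weaker one at 22.2 kb had 19.8 and 18.4 in the ATRA lists alone. The intronic regions at 3.54 kb (33.7 in control replicate 1 and 5.86 in control replicate 2) and 32.9 kb (8.69 and 12) were found in the control lists alone. The control-specific regions of ITGAM were low in their lists. Within 50 kb of the gene ITGAM had 5 ATRA-specific and 2 control-specific regions, and 3.47% of 20162 protein-coding genes had at least as many ATRA-specific regions. The 5 include the regions 2.68 kb upstream of ITGAX and 12.9 kb into it, which are also counted for ITGAX and ITGAD.

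ITGAX, the CD11c subunit of macrophages, dendritic cells and granulocytes, had a start-site peak in each ATRA list and none in the control lists. The peaks lay in different places, however. ATRA replicate 1 had a peak at the percentile 46.8 that lay 0.069 kb upstream of the canonical start site, and ATRA replicate 2 had a peak at 16.3 that lay 0.598 kb upstream. No single start-site region was thus shared by the ATRA replicates, and neither was ATRA-specific by the rebuilt definition. The group means were 31.6 ± 21.6 and 0 (SD, n = 2 each; two-sided exact permutation p = 0.333).

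Clearer differences lay around the ITGAX gene. At its 3′ end, chr16:31393800-31394319 was in every list, with 78.4 and 88.4 in the ATRA lists against 30.9 and 34.5 in the control lists, a gap wider than the spread within either group. A region 2.68 kb upstream of the start site was ATRA-specific, with 55.9 and 80.7 in the ATRA lists, no peak in control replicate 1 and 18.5 in control replicate 2. In an ITGAX intron, 12.9 kb downstream, another ATRA-specific region had 27.5 and 53.3 against no peak and 16.6. ITGAX had 2 ATRA-specific and 0 control-specific regions within 50 kb, and 34.6% of genes had at least as many, so by count it was not unusual.

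ITGAD, which encodes CD11d, had no start-site peak in any list and a single region in its body. That region, 7.05 kb downstream of the start site, was found in ATRA replicate 2 alone, at the percentile 26.6. The region at the ITGAX 3′ end described above lay 10.6 kb upstream of ITGAD, whose start site was the nearest to it. ITGAD had 4 ATRA-specific regions within 50 kb (7.68% of genes had at least as many), and they all lay outside its body. They were the regions 2.68 kb upstream of ITGAX and 12.9 kb into it and, on the far side of ITGAD, a region at the ZNF843 start site (34.7 and 83.2 in the ATRA lists, no peak and 20.2 in the control lists) and chr16:31463056-31463576 (1.79 and 62.9 in the ATRA lists alone). At the far end of the window, a region at ARMC5 was in every list, with 96.9 and 96.8 against 64.1 and 61.4.

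ITGAL, the LFA-1 subunit, was the exception among the alpha subunits. Its promoter region, chr16:30483750-30484155, had the percentiles 53.9 and 39.8 in the control lists, 26.9 in ATRA replicate 1 and no peak in ATRA replicate 2. This made it control-specific. An intronic region 1.14 kb downstream of the canonical start site, chr16:30484912-30485494, had 14.1 and 34.2 in the ATRA lists and no peak in the control lists. Its centre lay 0.119 kb upstream of an alternative ITGAL start site.

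Peaks at the ITGAL start thus lay at different places in the groups. Taken as the highest percentile within 1 kb of any ITGAL start site, the values were 26.9 and 34.2 in the ATRA lists and 53.9 and 39.8 in the control lists, with a mean difference of -16.3 (two-sided exact permutation p = 0.333, n = 2 each). Deeper in the gene, ATRA-specific regions with no control peak lay 16.6 kb (14.7 and 44.2) and 19.4 kb (60 and 3.71) downstream of the start site. The ATRA replicates differed widely at both.

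The strongest control-specific region of all windows lay 19.6 kb upstream of ITGAL. This intergenic region, chr16:30464005-30464870, had the percentiles 95 and 88.6 in the control lists and no peak in either ATRA list. Of the 2633 regions of the genome found in both control lists alone, 5 (0.19%) were at least as high in both lists, itself included. The remaining ATRA-specific regions of this window lay 22.8 kb upstream (5.14 and 1.39), at the ZNF747 start site (27.9 and 48.6, with 42.3 in control replicate 1) and 0.546 kb upstream of it (5.02 and 38.7). Of the 6 regions in every list, those at the SEPHS2, ZNF768 and ZNF764 start sites had both ATRA values above both control values, and only that at SEPHS2 (58.1 and 44.5 against 27.3 and 17.3) had a gap of over 10 percentiles between the lower ATRA value and the higher control value. ITGAL had 6 ATRA-specific and 2 control-specific regions within 50 kb, and 1.46% of genes had at least as many ATRA-specific ones.

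ITGB2, on whose product every member integrin depends, had the largest difference in start-site percentile. This took the highest value over its 14 annotated start sites, and the other members have 1 to 5. Its values were 63.3 and 66.6 in the ATRA lists, 8.01 in control replicate 1 and no peak in control replicate 2. The groups did not overlap, and the means of 64.9 ± 2.34 and 4 ± 5.66 (SD, n = 2 each) differed by 60.9 (two-sided exact permutation p = 0.333). At the canonical start site, chr21:46340637-46341087, the percentiles were 26.8 and 64.9 against 8.01 and no peak. The difference of means there was 41.8, below the 52 of ICAM1.

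The higher values came from an alternative start within the gene, 6.64 kb downstream of the canonical one. There chr21:46333913-46334443 had 63.3 and 66.6 in the ATRA lists and no peak in either control list. An intronic region at 12.7 kb was likewise found in the ATRA lists alone (36.5 and 50.9). The remaining regions of the ITGB2 body, at 27.9 kb, 14.9 kb and, upstream of the canonical start, 10.4 kb, were each found in a single ATRA list, at percentiles of 41.8, 10.6 and 2.28. The control lists therefore held 1 peak in the whole gene, the weak one at the canonical start.

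Past the 3′ end of ITGB2 the picture was mixed. Regions at 42 kb (50.7 and 31.1, no control peak) and at 47.2 kb, the PTTG1IP start site (50.5 and 36.5 against 15.6 and no peak), were ATRA-specific. The region at 39.7 kb, chr21:46300754-46301509, was in every list and had 34.6 and 36.6 in the ATRA lists against 70.3 and 60.8 in the control lists. It was the single region in every list of the windows with control values above the ATRA values. A region in PTTG1IP, at 55.2 kb, was found in the control lists alone (28.3 and 15.5). ITGB2 had 5 ATRA-specific and 1 control-specific region within 50 kb, and 3.47% of genes had at least as many ATRA-specific ones.

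By the Euclidean distance of the 4 start-site percentiles, the genes most like ITGB2 among 19763 outside the windows were RNASE6 (distance 4.72), a ribonuclease of the RNase A family, ZNF623 (5.68) and HSD17B4 (6.48), a peroxisomal enzyme. The percentiles of RNASE6 were 58.8 and 67.3 in the ATRA lists and 6.7 and 0 in the control lists.

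Of the ligands, ICAM1, which binds LFA-1 and Mac-1 and is a known inducible gene of inflammation, had no control peak between the MRPL4 start site upstream and the region at its own 3′ end. Its promoter held 3 adjoining regions that were all found in the ATRA lists alone. The proximal region, chr19:10381506-10381971, had 10 in ATRA replicate 1 and 32.2 in ATRA replicate 2, the distal one, chr19:10380834-10381459, had 71.5 and 32.5, and a further one 1.44 kb upstream had 31.6 and 27.9. The distal region was the highest in both ATRA lists, narrowly so in ATRA replicate 2, and the order of the others differed between the replicates. The start-site means were 52 ± 27.6 and 0 (SD, n = 2 each; two-sided exact permutation p = 0.333).

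At the 3′ end of ICAM1 a wide region, chr19:10397043-10398243, ran into the start of the neighbouring ICAM4, a red cell ligand of beta2 integrins. It had 81.5 and 79.1 in the ATRA lists, no peak in control replicate 1 and 20.5 in control replicate 2, and covered 1016 and 1201 bases in the ATRA lists against 201 in control replicate 2. Upstream of ICAM1, chr19:10346692-10347239 at 34.8 kb, nearest to the S1PR2 start site, had 74.5 and 68.9. A region within S1PR2 and DNMT1 at 48.4 kb had 28.4 and 68.2. Both were found in the ATRA lists alone. The region at the MRPL4 start site, 19.1 kb upstream, was in every list (90.1 and 87.9 against 71.6 and 76.7). ICAM1 had 6 ATRA-specific regions within 50 kb, which 1.46% of genes matched or exceeded, and 0 control-specific regions.

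ICAM3, the ICAM of resting leukocytes, had a promoter region, chr19:10450081-10450619, with 31.2 and 76.8 in the ATRA lists, no peak in control replicate 1 and 35 in control replicate 2. The groups overlapped (54 ± 32.3 against 17.5 ± 24.8, SD, n = 2 each; two-sided exact permutation p = 0.667). The region was ATRA-specific because the control replicates did not share it, so this call rests on control replicate 1. Upstream of ICAM3, a region at 7.1 kb was found in the ATRA lists alone (37.1 and 52.6), and a TYK2 intron at 33.2 kb had 51 and 60.4 against no peak and 20.2. Regions in every list at the RAVER1 start site (90 and 89.6 against 65.2 and 48.9) and the TYK2 start site (91.6 and 91.9 against 82.3 and 83.1) had both ATRA values above both control values. ICAM3 had 4 ATRA-specific and 0 control-specific regions within 50 kb (7.68% of genes had at least as many ATRA-specific ones). The 4 include the region at the 3′ end of ICAM1, which is also counted for ICAM1.

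Over the windows, 10 of the 14 regions found in every list had both ATRA percentiles above both control percentiles (background 29.2%), and 1 had the reverse (background 12.8%). Only 3 of the 14 were nearest to a member and 11 were nearest to a neighbouring gene. Most of those higher with ATRA lay at neighbouring start sites, those of SEPHS2, ZNF768, ZNF764, ARMC5, MRPL4, RAVER1 and TYK2. The gap was smallest at ZNF764, where the lower ATRA value was 90.5 and the higher control value 90.4. With lists of equal length the count was 8 of 14 (background 22.6%). The share of each list's peak bases that lay in the windows gives a measure that does not rise with list length alone. Per 1000000 peak bases of the list it was 1146 in ATRA replicate 1, 1018 in ATRA replicate 2, 586 in control replicate 1 and 677 in control replicate 2. The groups did not overlap, with means of 1082 ± 90.4 and 631 ± 64.3 (SD, n = 2 each) and a ratio of 1.71 (two-sided exact permutation p = 0.333).

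By window, the ratio of group means was highest around ICAM1 and ICAM3, where the shares were 388 and 288 in the ATRA lists and 69.6 and 134 in the control lists (ratio 3.32). Around ITGB2 they were 139 and 136 against 105 and 33.1 (ratio 1.99), and around ITGAM, ITGAX and ITGAD 284 and 325 against 143 and 243 (ratio 1.58). Around ITGAL the shares were 335 and 269 against 269 and 267 (ratio 1.13). The ITGAL difference of 34.4 rested on ATRA replicate 1, since it was 1.32 without it, and it turned to -74.1 among the upper 50% of each list by score. No exact permutation p for a window was below 0.333. The groups overlapped around ITGB2 (p = 0.667) and around ITGAM, ITGAX and ITGAD (p = 1) when peaks were set to 200 bp or counted per 10000 peaks of the list, by the same exact permutation test.

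**Figure D4:**
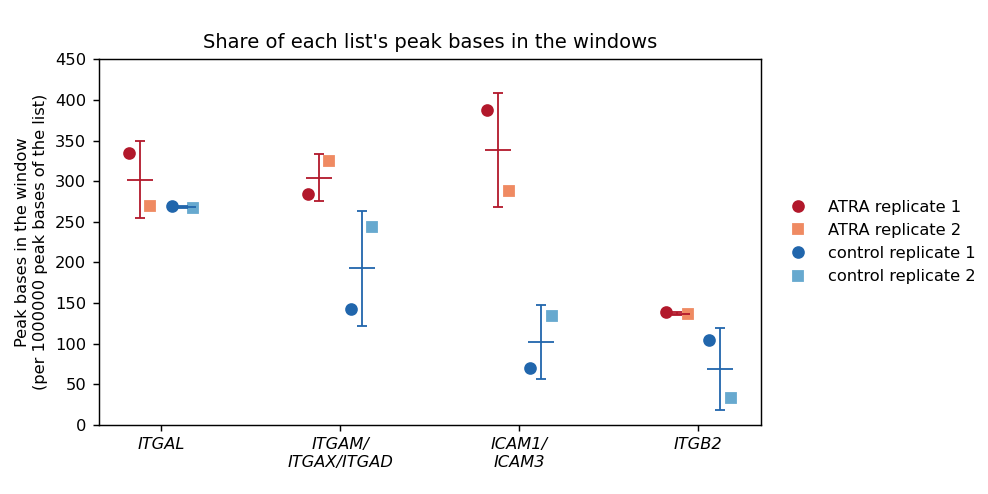
Peak bases in each window per 1000000 peak bases of the list (y axis, from 0), with 1 point per library and the mean ± SD of each group (n = 2). The ATRA points lie above the control points at ICAM1/ICAM3 (288 to 388 against 69.6 to 134), at ITGAM/ITGAX/ITGAD and at ITGB2 (at both, not with peaks set to 200 bp), while at ITGAL 3 of the 4 points lie between 267 and 269.

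The wider adhesion machinery was described with 37 genes for other adhesion receptors, ligands and integrin activators of leukocytes, all of which were found in the annotation. An ATRA-specific region lay in the body or within 50 kb of 35 of them (94.6%, against a background of 64.5%), and a control-specific region near 18 (48.6% against 39%), each of which also had an ATRA-specific one. The median number per gene was 3 ATRA-specific regions in the list and 1 over all protein-coding genes, and 0 control-specific regions in both. A longer gene has a longer window, and these counts, like those of the members, were not adjusted for gene length or local peak density. ICAM4 and ICAM5 of this list lie in the ICAM1 window and share its regions. At start sites, 14 of the 37 had both ATRA percentiles above both control percentiles (background 22.2%) and 3 the reverse (background 3.82%), namely VAV1, ICAM2 and SELPLG.

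Many ATRA-specific regions in this list were found at ICAM5, RAP1A and SYK with 6 each and at CD44 with 5. RAP1A encodes a small GTPase that switches integrins to their active state, and its start-site percentiles were 65.6 and 47.7 in the ATRA lists against 1.27 and 2.58 in the control lists. SYK encodes a kinase that signals downstream of beta2 integrins, with 75.6 and 86.8 against 54.4 and 50.8. The ICAM5 start site had no peak in any list, and its 6 regions are those around ICAM1 and ICAM3.

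The most control-specific regions were found at ITGA4, the alpha4 chain of a receptor for VCAM1, with 4, all absent from both ATRA lists. APBB1IP, the Rap1 effector RIAM, and the exchange factor VAV3 followed with 3 each. CD44 came next with 2, tied with ICAM2, LYN and TLN1. The ITGA4 start site itself did not separate the groups, at 93.2 and 94.1 in the ATRA lists and 93.2 and 95.5 in the control lists. SELPLG, the selectin ligand, had a start-site peak in the control lists alone (61.9 and 57), as had ICAM2 (70.6 and 28).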

How the data were processed

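Groups came from the sample titles. Per the submitters' notes, which name cutadapt, Bowtie2, MACS2 and hg19, and the methods, which name Bowtie where the notes name Bowtie2, the authors removed adapters, aligned reads and called peaks with MACS2. The lists were deposited per library. Each deposited list holds 5 columns, the last being the authors' score of the peak, whose scale is not stated. Nothing states a shift to the Tn5 cut site, duplicate removal or a blacklist, which can displace peak edges and leave peaks in repeats.

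Scores were ranked within each list. The reference was GRCh37 with GENCODE release 44 lifted to it. Of 24 chromosomes used, 0 were missing from it, and 0 regions passed a chromosome end. Coordinates are 1-based. Overlap meant at least 1 bp, and a start-site peak lay within 1 kb of a start site of a protein-coding transcript. Touching peaks were merged. Python 3.11.15, numpy 2.4.6, pandas 2.3.3 and matplotlib 3.10.9 were used, and the code was tested on simulated data. The group differences were tested with an exact permutation test over the 4 libraries. The study calls the replicates biologically independent, and the labels do not say whether they were separate cultures.

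The members and lists were chosen with earlier results of these data known. Regions named are those at a member's start site, the specific regions and the regions in every list whose percentiles do not overlap between groups. The regions of the ITGAD and ITGB2 bodies found in ATRA replicate 2 alone were added after their values were seen. Partner genes named are the 4 with the most regions specific to each group, ties by symbol, and further ones (VAV1, ICAM2 and SELPLG) were chosen after their values were seen. The word shown in the proximal ICAM1 sequence was found by searching the printed stretch. Some withheld items are not reported here. Alternatives were lists of equal length, the upper 50% by score, peaks of 200 bp, flanks of 25 kb or 100 kb, each library left out, other rules for overlap and specificity, and peaks per 10000 peaks.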

Additional observations from a re-analysis of the deposited data

How the results depend on the processing

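The count of ATRA-specific regions (27) was 11 in the upper 50% of each list by score, of 19 convincing regions (background 39.1%), and 17 where regions had to be absent from both control lists, of 41 (background 18.5%). The count of control-specific regions (5) was 2 of 10 in the upper 50% by score (background 25.8%) and 4 of 18 with lists of equal length (background 27.2%), both below background. Of the regions in every list, those higher with ATRA (10) numbered 5 of 8 in the upper 50% by score (background 29.6%) and 6 of 8 with flanks of 25 kb (background 29.2%), and those higher in the control (1) numbered 0 of 8 in the upper 50% by score (background 12.3%) and 2 of 25 with flanks of 100 kb (background 12.8%). The share of covered bases around ITGAL turned from 34.4 to -74.1 per 1000000 in the upper 50% by score, and the cause was not tested. Leaving out each library in turn gave 21 to 46 ATRA-specific regions, from 21 of 41 without control replicate 1 (background 27.1%) to 46 of 60 without ATRA replicate 1 (background 55.4%). Across these omissions, control-specific ones numbered 4 to 9. Only the share without ATRA replicate 1 lay above its background, at 5 of 19 (background 9.97%). The others were 4 of 19 without ATRA replicate 2 (background 22.4%), 8 of 27 without control replicate 2 (background 32.7%) and 9 of 32 without control replicate 1 (background 36.3%). Regions in every list higher with ATRA numbered 10 to 15, from 10 of 15 without ATRA replicate 2 (background 34.3%) to 15 of 20 without control replicate 1 (background 44%). Those higher in the control numbered 1 to 4, of which 4 of 15 without ATRA replicate 2 (background 36.8%). The difference in covered share ranged from 386 to 514 per 1000000 over all windows, 187 to 286 around ICAM1 and ICAM3, 32.3 to 104 around ITGB2 (lowest without control replicate 2), 61.2 to 161 around ITGAM, ITGAX and ITGAD (lowest without control replicate 1) and 1.32 to 67.5 around ITGAL. With peaks set to 200 bp, the difference around ITGAM, ITGAX and ITGAD was 29 (two-sided exact permutation p = 1) and that around ITGB2 65.7 (p = 0.667, same exact test). As peaks per 10000 peaks of the list they were 0.29 (exact permutation p = 1) and 0.657 (p = 0.667). With the replicate number as a block, the pair differences over all windows were 560 and 341 per 1000000 (mean 450, exact sign-flip p = 0.5), and the numbers share only a weak correlation (0.211 over 23654 regions in every list), with 2 pairs. The same signs held for the other shares under every alternative. Depth is unknown, so a missing peak cannot be read as closed chromatin.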
